A study of Elopichthys bambusa with 12 samples.

Results

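A set of 41 transcript features, of 42353 in the liver of yellowcheek carp, was strongly repressed by a short and by a long fast. A feature is an assembled transcript, and its level is given in CPM, its estimated count over the total of its library times 1000000. The members were chosen by these measured levels. A feature was taken when its mean was at least 10 CPM in both fed groups, when these means were within 2-fold of each other, and when the fasted mean was at most 0.25 of the fed mean at 8 days and again at 28 days. Each of the 6 fed libraries also had to lie above each of the 6 fasted ones. The falls therefore chose the features, and they are described here without being used as support for anything.

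The livers came from *Elopichthys bambusa*, a predatory freshwater cyprinid, and RNA sequencing was done on 3 libraries in each of 4 groups. Fish without food for 8 days were set beside fish given a commercial diet for those 8 days, and fish without food for 28 days beside fish given the diet for 28 days. All were unmodified fish as far as the labels say, and the labels give neither age, sex, strain nor whether a library was made from 1 fish or from a pool. The labels number the 3 replicates of a group but do not say that they came from separate fish, so the p-values measure only the spread between these libraries.

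In fed vertebrates the liver stores incoming glucose as glycogen and builds fatty acids from the surplus. During a fast it turns to releasing glucose and burning fat, and many transcripts for building and storage fall. In many cyprinids strands of exocrine pancreas, which makes digestive enzymes, run through the liver, so that a sample can hold several cell types. The identifiers in the files carry no gene names, so the features are called here by their length in nucleotides, which differs for each of the 41, and no function is given to any of them. For the same reason the tissue label and other cell types could not be checked against marker genes. In whole tissue, fewer cells of a type and less RNA per cell cannot be told apart.

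Library totals ran from 16785827 to 19901335 estimated counts, and a value of 0 allows up to 3 counts, or 0.151 to 0.179 CPM, a limit that covers counting error only. The fasted livers were not uniform. Replicates 1 and 3 of the fasted 8-day group and replicate 1 of the fasted 28-day group lay all above the other 3 fasted libraries in 22.2% of the 2689 features that were steady between the fed groups, that is, within 2-fold and at 10 CPM or more in both. They lay all below them in 31.9%. The fed groups held libraries that stood apart for certain members, namely replicate 3 at 8 days and replicate 3 at 28 days.

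Few steady features fell this far. At 8 days 79 of the 2689 had a fasted mean at or under 0.25 of the fed mean, and at 28 days 70 had. The fall was reached on both days by 51, only at 8 days by 28 and only at 28 days by 19. Overlap between fed and fasted libraries removed 10 of the 51, which left the 41 members, 1.52% of the steady features. A further 35 features met every condition except the limit on the ratio between the fed groups. The opposite rule, with fasted and fed exchanged so that features rose by 4-fold or more on both days, was met by 65 features. Over all 32212 features with enough counts to be tested, a fasted mean at or under 0.25 of the fed mean was found in 7.63% at 8 days and 3.27% at 28 days, and 3.07% had all 6 fasted below all 6 fed libraries. All 41 members had enough counts to be tested.

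Among features of 10 CPM or more in fed livers, which the rule required, the members were of low to high abundance, with a mean in fed livers above 1000 CPM in 11, between 100 and 1000 CPM in 10 and lower in 20. Their summed counts made up 0.163% ± 0.049 of all counts in livers fasted for 8 days, against 4.54% ± 1.38 in livers fed for 8 days (mean ± SD, n = 3 each). After 28 days they made up 0.247% ± 0.155 in fasted livers, against 3.62% ± 1.38 in fed livers. Replicate 3 raised the fasted 28-day mean, which was 0.158% without it. The level left in fasted livers, as a percentage of the fed mean of the same day, had a median of 9.48% at 8 days (0.146% to 23.1%) and of 8.92% at 28 days (0.218% to 24.95%). As unscaled CPM, more was left at 28 than at 8 days in 28 members and less in 13. In edgeR's fit on TMM-scaled counts the fall was larger at 28 days in 21 members and smaller in 20. With library size as the only scaling, the members' log2 fold change at 28 days minus that at 8 had a median of 0.28. Over all features this median was 0.34. A fall of at least 8-fold on both days was seen in 22 members, of at least 16-fold in 9 and of at least 100-fold in 1. No member was without counts in all 6 fasted libraries, and 3 had a value of exactly 0 in 1 of them. The 947-nucleotide member is not among these 3, though some of its estimated counts round to 0. It had 4.77e-07 and 6.13e-07 CPM in replicates 1 and 3 fasted for 8 days, and 2.69e-06 CPM in replicate 1 fasted for 28 days. The plot of the CPM left after each fast shows the members at the low end of the steady features on both axes.

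**Figure D1:**
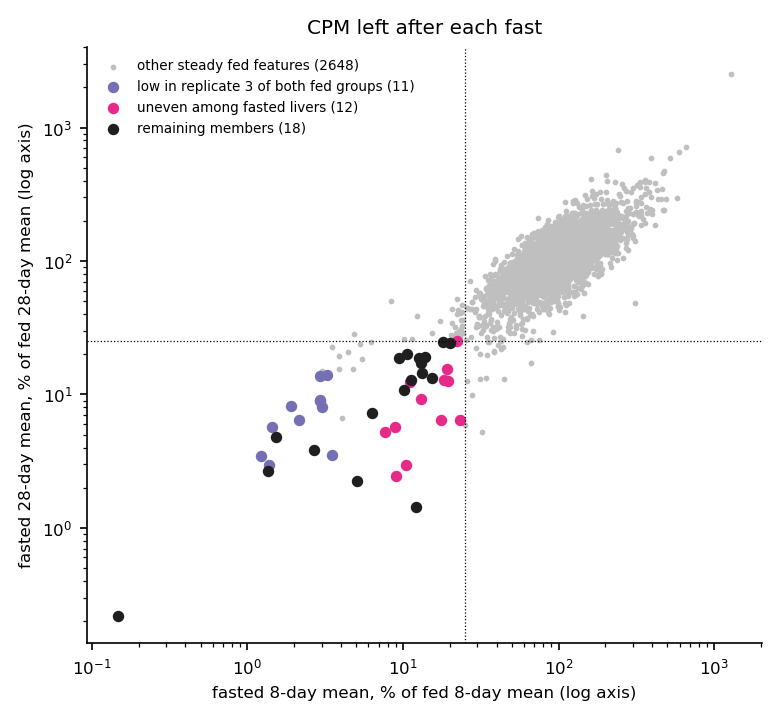
CPM left after each fast, as the fasted mean in percent of the fed mean of the same day, with 8 days across and 28 days up, both on log axes. Coloured points are the 41 members by profile, grey points the other 2648 steady fed features, and the dotted lines the limit of 25%. The lowest point, at 0.146% and 0.218%, is the 4359-nucleotide member.

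The gap between fed and fasted libraries varied among the members. The lowest fed library was 1.09 to 422 times the highest fasted library, with a median of 3.39. This ratio was above 2 in 30 members and under 1.5 in 5. In edgeR's quasi-likelihood test on TMM-scaled counts, with p-values adjusted over all features tested, 39 of the 41 members passed as lower in fasted livers at 8 days, where 12.1% of all features did. The median log2 fold change of the members was -3.37 (-9.41 to -1.98), against 0.16 for all features. At 28 days 35 members passed, where 5.79% of all features did, and the median was -3.87 (-9.18 to -2.31), against 0.10 for all features. The rule used both contrasts, so these counts are a description and add no support. They depend on the size of the fall and the level of a feature as well as on the spread between libraries. The 564-nucleotide and the 2510-nucleotide members passed on neither day, with edgeR adjusted p = 0.162 and 0.339 at 8 days and 0.0606 and 0.116 at 28 days. Those of 340, 833, 1051 and 1767 nucleotides did not pass at 28 days, with edgeR adjusted p = 0.0850, 0.0643, 0.0608 and 0.0754.

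The members fell into 3 profiles by how the libraries within a group differed. This grouping was made after the values were seen, so it carries no test. In 18 members neither of the uneven patterns below was present. In 11 members replicate 3 was at or below 0.5 of each of replicates 1 and 2 in both fed groups. In 12 members the fasted libraries split along the line given above, with replicates 1 and 3 of the fasted 8-day group and replicate 1 of the fasted 28-day group highest. These are 29.3% of the members, and 22.2% of the steady features had the same split. The map of the 41 features shows the 3 profiles as blocks.

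**Figure D2:**
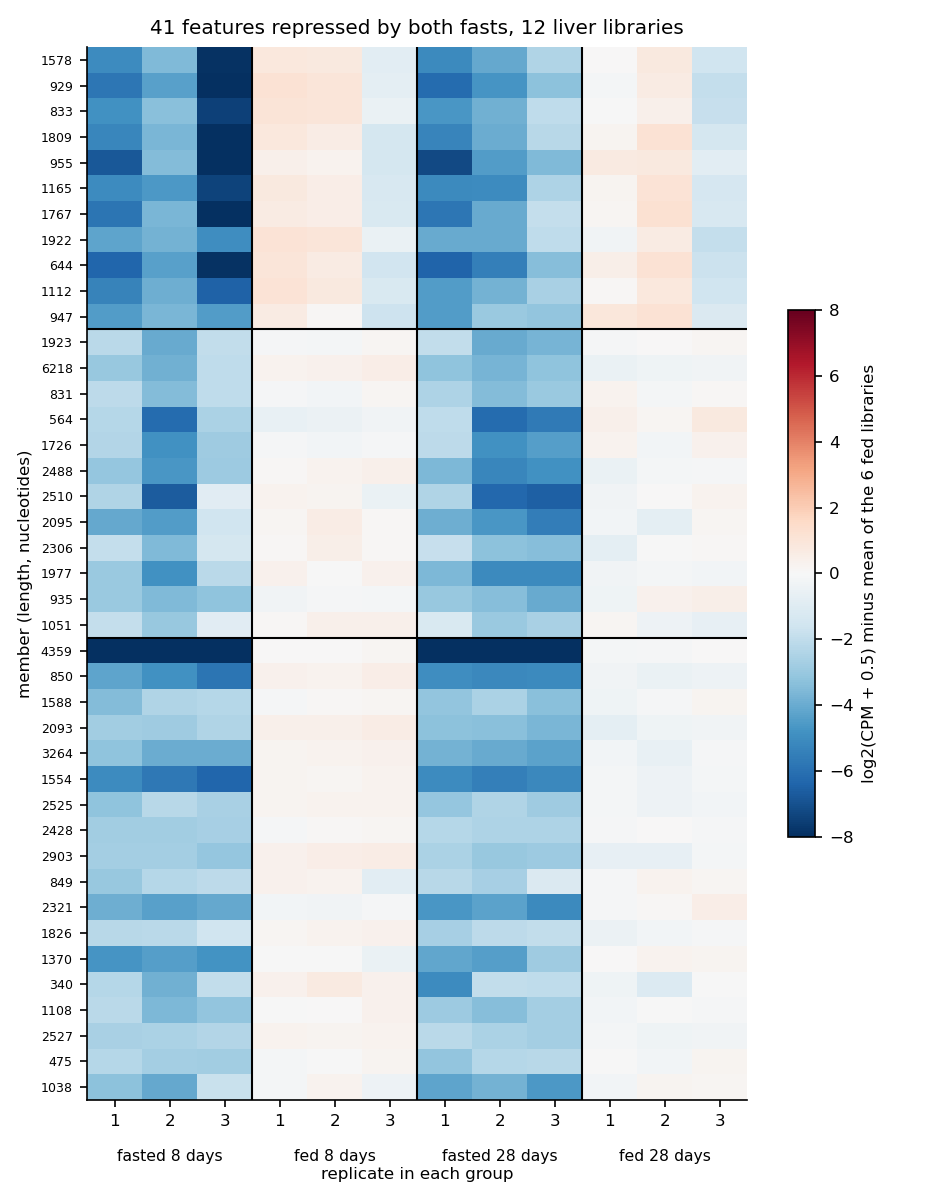
Log2(CPM + 0.5) of the 41 members in 12 liver libraries, each as the difference from the feature's mean over the 6 fed libraries (blue below, red above, colours ending at -8 and 8). Columns are replicates 1 to 3 of the fasted 8-day, fed 8-day, fasted 28-day and fed 28-day groups, rows are members by length in nucleotides, and black lines part the 3 profiles. Replicate 3 of both fed groups is paler or bluer in the upper block of 11, and the fasted columns are uneven in the middle block of 12.

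The 18 members without either pattern held 0.0393% ± 0.0019 of all counts in livers fasted for 8 days, against 1.45% ± 0.089 in fed livers (n = 3 each). At 28 days they held 0.0332% ± 0.0020 in fasted livers, against 1.13% ± 0.064 in fed livers, and their sums were close together within every group. These sums were weighted by the most abundant members and do not show how even single members were. In livers fasted for 8 days the 850-nucleotide member had 190, 124 and 61.7 CPM in replicates 1, 2 and 3. The 1588-nucleotide member ran the other way there, with 62.2, 132 and 142 CPM. Between the libraries fasted for 8 and 28 days, the coefficients of variation of the 18 had medians of 33.2% and 25.5%. They reached 113% and 107%, both in the 1038-nucleotide member. All 18 passed at 8 days and 17 at 28 days.

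The member of 4359 nucleotides, TRINITY_DN14406_c0_g1_i8_4, had the largest fall on both days and was the member with the highest mean CPM in fed livers. It had 8.37, 14.0 and 11.1 CPM in livers fasted for 8 days, against 7469, 7331 and 8056 CPM in livers fed for 8 days. It had 14.8, 14.9 and 15.03 CPM in livers fasted for 28 days, against 6342, 6849 and 7399 CPM in livers fed for 28 days. The fasted libraries were close together and the fed libraries were close together, with no value in between, and the 3 livers fasted for 28 days hardly differed. Fed livers had 684 times the fasted mean at 8 days and 460 times at 28 days, with log2 fold changes of -9.41 ± 0.20 and -9.18 ± 0.19 (± SE, edgeR adjusted p = 1.16e-09 and 1.37e-09). Its lowest fed library was 422 times its highest fasted library, the widest gap of any member. Per length, however, it did not lead: it averaged 1684 FPKM over the 6 fed libraries, while the shorter members of 1578, 850, 833 and 929 nucleotides averaged 4554, 4432, 4431 and 4395 FPKM.

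The 850-nucleotide member had 190, 124 and 61.7 CPM in livers fasted for 8 days, against 4557, 4275 and 5146 CPM in fed livers. After 28 days it had 114, 97.4 and 102 CPM in fasted livers, against 2992, 2515 and 2706 CPM in fed livers. The fasted 8-day libraries spread widely and the other groups were tight, and fed and fasted libraries stayed far apart on both days. The level left was 2.69% at 8 days and 3.81% at 28 days.

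The other member named by its identifier, TRINITY_DN11413_c0_g1_i2_2 of 1554 nucleotides, was far less abundant, and its fasted libraries were less close together. It had 2.91, 1.61 and 0.848 CPM in livers fasted for 8 days, against 132, 126 and 135 CPM in fed livers. It had 2.88, 2.04 and 2.68 CPM in livers fasted for 28 days, against 99.4, 84.9 and 99.1 CPM in fed livers. Its lowest fed library was 29.2 times its highest fasted library. The log2 fold changes were -6.16 ± 0.41 at 8 days and -5.55 ± 0.40 at 28 days (edgeR adjusted p = 3.31e-06 and 3.00e-05). The member of 1370 nucleotides was rarer still, with 0.241 ± 0.097 CPM in livers fasted for 8 days against 15.8 ± 3.1 in fed livers, and 0.974 ± 0.915 CPM in livers fasted for 28 days against 20.4 ± 1.9 in fed livers. In the other 14 of these 18, the level left ran from 5.03% to 20.1% at 8 days and from 1.43% to 24.7% at 28 days.

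The 11 members that were low in replicate 3 of both fed groups made up 45.7% of the members' summed CPM in livers fasted for 8 days, against 61.4% in fed livers, and 72.5% in livers fasted for 28 days, against 60.5% in fed livers. The fasted shares differed widely between libraries, at 35.2%, 73.7% and 8.43% in replicates 1, 2 and 3 at 8 days and 34.95%, 68.2% and 87.5% at 28 days. Without replicate 3 the share was 52.3% in livers fasted for 28 days, below that of fed livers, and without replicate 2 it was 23.6% in livers fasted for 8 days. The most abundant of them, against which the others are set, was the 1578-nucleotide member. It had 183, 505 and 24.0 CPM in livers fasted for 8 days, against 10716, 10211 and 3272 CPM in fed livers. It had 171, 351 and 1115 CPM in livers fasted for 28 days, against 5995, 10090 and 1914 CPM in fed livers. Replicate 3 was the lowest library of both fed groups and of the fasted 8-day group, and the highest of the fasted 28-day group. Its lowest fed library was only 1.72 times its highest fasted library, and both of these were replicate 3 of the 28-day groups. The plot of the 6 members of highest mean CPM shows the same order of libraries in 4 of them.

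**Figure D3:**
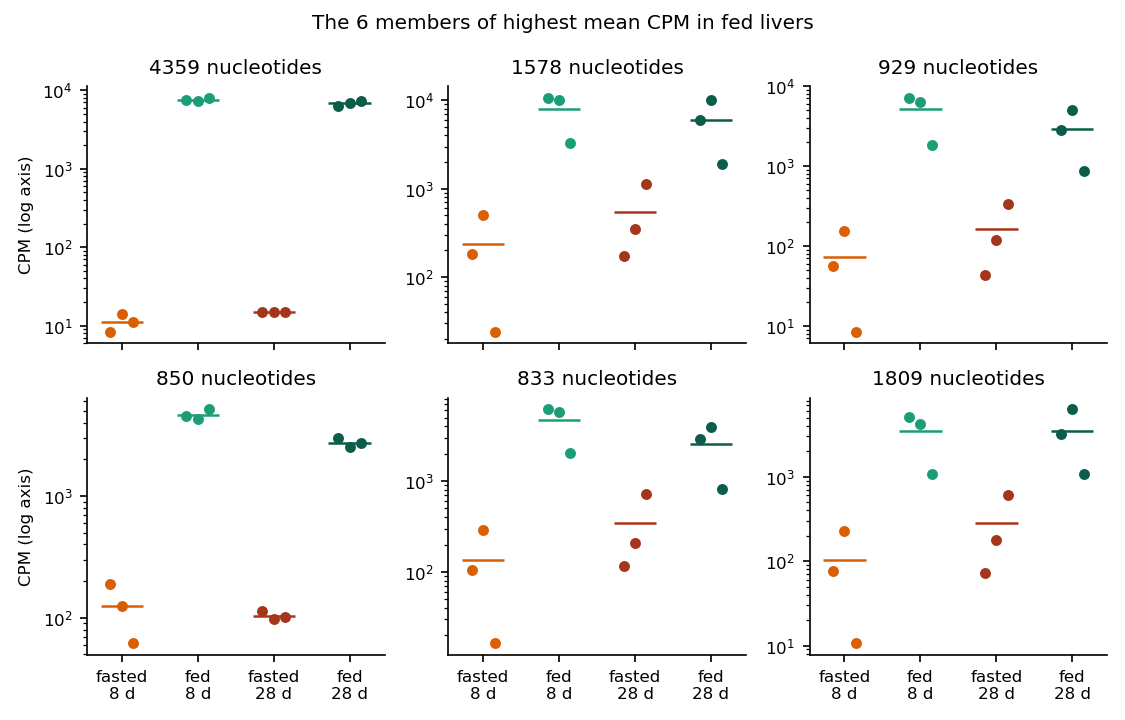
CPM of the 6 members of highest mean CPM in fed livers, on log axes that differ between panels. Points are replicates 1, 2 and 3 from left to right, and bars are means of 3 libraries. In the members of 4359 and 850 nucleotides the points of a fed group lie together, and in the members of 1578, 929, 833 and 1809 nucleotides replicate 3 lies below the others in both fed groups, lowest in the fasted 8-day and highest in the fasted 28-day group.

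The 929-nucleotide member had 56.2, 154 and 8.49 CPM in livers fasted for 8 days, against 7147, 6279 and 1839 CPM in fed livers. After 28 days it had 43.7, 119 and 330 CPM in fasted livers, against 2799, 4985 and 855 CPM in fed livers. The order of the libraries was that of the 1578-nucleotide member in all 4 groups. The 833-nucleotide member came closest to overlap among the most abundant, with 116, 209 and 723 CPM in livers fasted for 28 days against 2900, 3957 and 816 CPM in fed livers. It had 105, 286 and 16.4 CPM in livers fasted for 8 days, against 6154, 5742 and 2039 CPM in fed livers, where the groups were far apart. The 1809-nucleotide member had 75.9, 227 and 10.6 CPM in livers fasted for 8 days against 5079, 4225 and 1065 CPM in fed livers, and 72.7, 179 and 604 CPM in livers fasted for 28 days against 3217, 6287 and 1080 CPM in fed livers. Again replicate 3 was lowest among the fed libraries and highest among those fasted for 28 days.

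The members of 644 and 947 nucleotides carried the pattern at low abundance. The 644-nucleotide member had 0.946, 5.45 and 0 CPM in livers fasted for 8 days, against 233, 187 and 41.8 CPM in fed livers. It had 0.925, 2.24 and 10.6 CPM in livers fasted for 28 days, against 163, 269 and 36.0 CPM in fed livers. The 947-nucleotide member had 0.387 CPM in replicate 2 of the livers fasted for 8 days and values near 0 in the others, against 17.3, 11.3 and 3.11 CPM in fed livers. After 28 days it had 0.954 and 0.751 CPM in replicates 2 and 3 and a value near 0 in replicate 1 of the fasted livers, against 20.3, 24.3 and 4.49 CPM in fed livers. For both, replicate 3 was the lowest fed library on each day, and no fasted library reached it.

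As a percentage of the mean of replicates 1 and 2, replicate 3 of these 11 members stood at 19.9% to 34.3% in livers fed for 8 days and at 16.7% to 33.6% in livers fed for 28 days. Of all 6 fasted libraries, replicate 3 at 8 days was the lowest in 10 of the 11 and replicate 3 at 28 days the highest in 9. Among the 2689 steady features the former was the lowest in 685 and the latter the highest in 325 (12.1%). The same low replicate 3 in both fed groups was seen in 25 of the 2689 steady features, or 0.930%, and in none of the 65 features of the opposite rule. Over all 42353 features, whose median level in fed livers was 0.964 CPM, the condition was met by 2544, or 6.01%. It set no lowest level, so a feature with 0 in replicate 3 of both fed groups met it whatever the other replicates held. That share is therefore not a share of features with a clearly low replicate 3. Over the 12 libraries, deviations from the group means on the log2(CPM + 0.5) scale correlated between pairs of these members with a median r of 0.94 (0.69 to 0.998, 55 pairs). These points share their libraries and totals, and the choice of the 11 fixed part of the likeness. Among the other 30 members, r with the 1578-nucleotide member ran from -0.87 to 0.57. What sets replicate 3 apart was not tested, and the labels name no batch.

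The features most like the 1578-nucleotide member were looked for among all 9165 features that reached 10 CPM in any library. Besides itself, 24 had an r over 0.95 with it on this scale, 6 members and 18 others. Of the 18, 7 had been removed only because a fed library overlapped a fasted one, and 8 had fed means that differed by over 2-fold. All 10 features removed only for overlap had the low replicate 3 in both fed groups, and in all 10 the highest fasted library was replicate 3 at 28 days. Their r with the 1578-nucleotide member was 0.849 to 0.994. These 10 were picked for overlap despite the fall in group means, which requires a low fed or a high fasted library. The rule did not set which replicate that library was. Part of their likeness to each other and to the 1578-nucleotide member was therefore fixed by the choice. Among the non-members with the highest r was a feature of 1583 nucleotides. It had 109 and 348 CPM in livers fasted for 8 and 28 days, against 7258 and 3138 CPM in fed livers. At 28 days 11.1% of its fed mean was left. More was left at 28 days in features of 1574, 1648 and 679 nucleotides, whose r was higher (28.4%, 14.95% and 50.3%). Less was left in features of 1412 and 1926 nucleotides, whose r was lower (6.71% and 4.78%).

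The 11 members did not keep fixed proportions. The 929-nucleotide member stood at 32.2% ± 2.7 of the CPM of the 1578-nucleotide member in livers fasted for 8 days, against 61.5% ± 5.2 in fed livers. At 28 days it stood at 29.7% ± 4.1 in fasted livers, against 46.9% ± 2.4 in fed livers, so no fasted library reached the lowest fed one. The 833-nucleotide member stood at 60.7% ± 6.5 in livers fasted for 8 days against 58.7% ± 3.2 in fed livers, and at 64.1% ± 4.3 in livers fasted for 28 days against 43.4% ± 4.6 in fed livers (SD, n = 3 each). The proportions of the 1922-nucleotide member spread widely in fasted 8-day livers, at 24.4%, 12.2% and 113% in replicates 1, 2 and 3, against 17.2%, 16.5% and 18.0% in fed livers.

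The coefficient of variation between fed libraries had a median of 56.0% at 8 days and 70.5% at 28 days in these 11, which were chosen for a low replicate 3, against 7.78% and 13.0% in the 18 members without either pattern (up to 40.0% and 36.4%). All 11 passed at 8 days, with log2 fold changes of -6.27 to -4.96. Of these 11, 9 passed at 28 days, with log2 fold changes of -5.47 to -3.20 over all 11. At 28 days the log2 fold change of the 1578-nucleotide member was -3.84 ± 1.06 (edgeR adjusted p = 0.0439), which passed in 8 of 24 other settings (adjusted p = 0.000498 to 0.154 over all 24). That of the 1809-nucleotide member was -4.02 ± 1.14 (edgeR adjusted p = 0.0491), which passed in 5 of 24 (0.00078 to 0.161). Both calls were lost when any one of these was left out: fasted 28-day replicates 1 and 2, fed 28-day replicates 1 and 2, fasted 8-day replicate 1 and each of the fed 8-day libraries. With both fed replicates 3 left out, 32 of the 41 members passed at 8 days and 29 at 28 days. The shares of all features passing in that fit were not recorded, so these counts cannot be set against them.

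The 12 members with a split among fasted livers held 0.0493% ± 0.0290 of all counts in livers fasted for 8 days, against 0.301% ± 0.026 in fed livers, and 0.0349% ± 0.0267 in livers fasted for 28 days, against 0.303% ± 0.028 in fed livers. The plot of summed counts by profile shows that their fed sums were close together while their fasted sums were not.

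**Figure D4:**
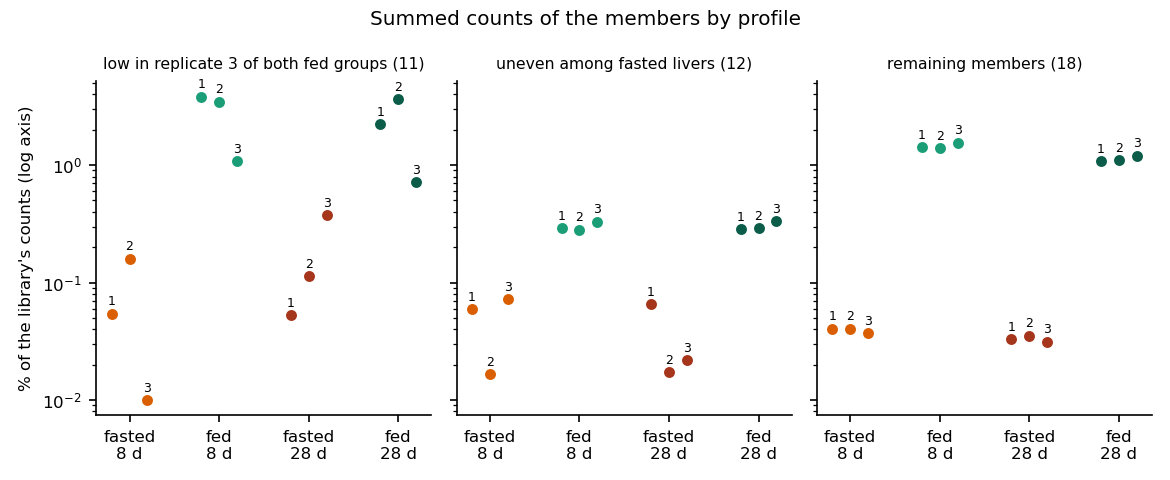
Summed counts of the members as a percentage of each library's counts, on a log axis, for the 11, 12 and 18 members of the 3 profiles. Each point is 1 library and carries its replicate number. In the left panel replicate 3 is lowest in both fed groups (1.07% and 0.719%), in the middle panel 3 fasted libraries lie at 0.0596% to 0.0717% and the other 3 at 0.0166% to 0.0218%, and in the right panel each group is tight.

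The 1923-nucleotide member was the most abundant of the 12. It had 386, 103 and 435 CPM in livers fasted for 8 days, against 1627, 1517 and 1896 CPM in fed livers. It had 448, 107 and 131 CPM in livers fasted for 28 days, against 1620, 1756 and 1956 CPM in fed livers. Replicate 2 of the fasted 8-day group resembled replicates 2 and 3 of the fasted 28-day group, and the other 3 fasted libraries lay well above them. The split was wider in the 2510-nucleotide member, with 12.4, 0.161 and 35.2 CPM in livers fasted for 8 days against 82.4, 78.0 and 46.0 CPM in fed livers. In livers fasted for 28 days it had 12.5, 0.354 and 0.224 CPM, against 56.1, 67.6 and 81.2 CPM in fed livers. Its highest fasted 8-day library came near its lowest fed one, and in 3 fasted libraries it was almost silent. The 564-nucleotide member had 41.4, 2.35 and 34.1 CPM in livers fasted for 8 days against 134, 145 and 166 CPM in fed livers, and 49.1, 2.34 and 3.47 CPM in livers fasted for 28 days against 270, 225 and 354 CPM in fed livers. The 3 high fasted libraries were again replicates 1 and 3 at 8 days and replicate 1 at 28 days.

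Of these 12 members 10 passed at 8 days and 9 at 28 days. Across the 12 libraries their deviations correlated with a median r of 0.84 (0.26 to 0.99, 66 pairs), part of which their choice fixed. The reverse split was seen in 10 of the 41 members (24.4%), against 31.9% of the steady features, and all 10 were among the 11 members low in fed replicate 3. The 1578-nucleotide member was one of them, so the negative r of the 12 with it (-0.87 to -0.53) was fixed in part by the choice. In a fit with fasted 8-day replicate 2 and fasted 28-day replicates 2 and 3 left out, 1 library stood for the fasted 28-day group. It was assumed to vary like the other groups, so the members passing in that fit are not counted here.

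The rule did not set the levels of the 2 fasted groups against each other, so fasted livers at 28 and 8 days were compared. This comparison asks whether the level in fasted livers differed after the longer fast. It leaves out the fed level of each day, so it does not measure whether repression deepened or eased. That is measured by the difference between the fasting effects, given further below. By edgeR's test no member passed, and 0% of all 32212 features did, with an adjusted p of 1 for each member. An unadjusted p under 0.05 was found for 7 of 41 members and for 2.78% of all features. DESeq2 and limma on log2(FPKM + 1) also called no member. The median log2 fold change of the members was -0.23 (-2.98 to 1.90), against 0.01 for all features, and 25 were lower and 16 higher after the longer fast, where 48.9% of all features were lower. The 25 became 21 with library size as the only scaling. The 3 libraries of livers fasted for 28 days lay all below those fasted for 8 days in 1 member, where 2.33% of all features did, and all above them in 2, where 4.31% did.

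By profile these values are a description. The 12 members with a split were chosen as high in 2 of 3 libraries at 8 days and 1 of 3 at 28 days. That choice favoured, without fixing it, their lower fitted level at 28 days (log2 fold changes of -2.48 to -0.30, SEs of 0.41 to 1.43). The 11 members low in fed replicate 3 were chosen on fed libraries, and all had the higher fitted level in livers fasted for 28 days, with log2 fold changes of 0.49 to 1.90 and SEs of 0.72 to 1.397. Both directions rest on few libraries, since 9 of the 11 had replicate 3 of the fasted 28-day group as the highest of all 6 fasted libraries and the 12 were low in 2 of its 3 replicates. With fasted 8-day replicate 2 and fasted 28-day replicates 2 and 3 left out, 19 of the 41 members were lower and the members' median was 0.03, and without fasted 8-day replicate 1 alone 20 were lower and the median was 0.06. Of the remaining 18 members 13 were lower and 5 higher, and their median SE was 0.29. The plot of fasted livers at 28 against 8 days gives each value with its SE.

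**Figure D5:**
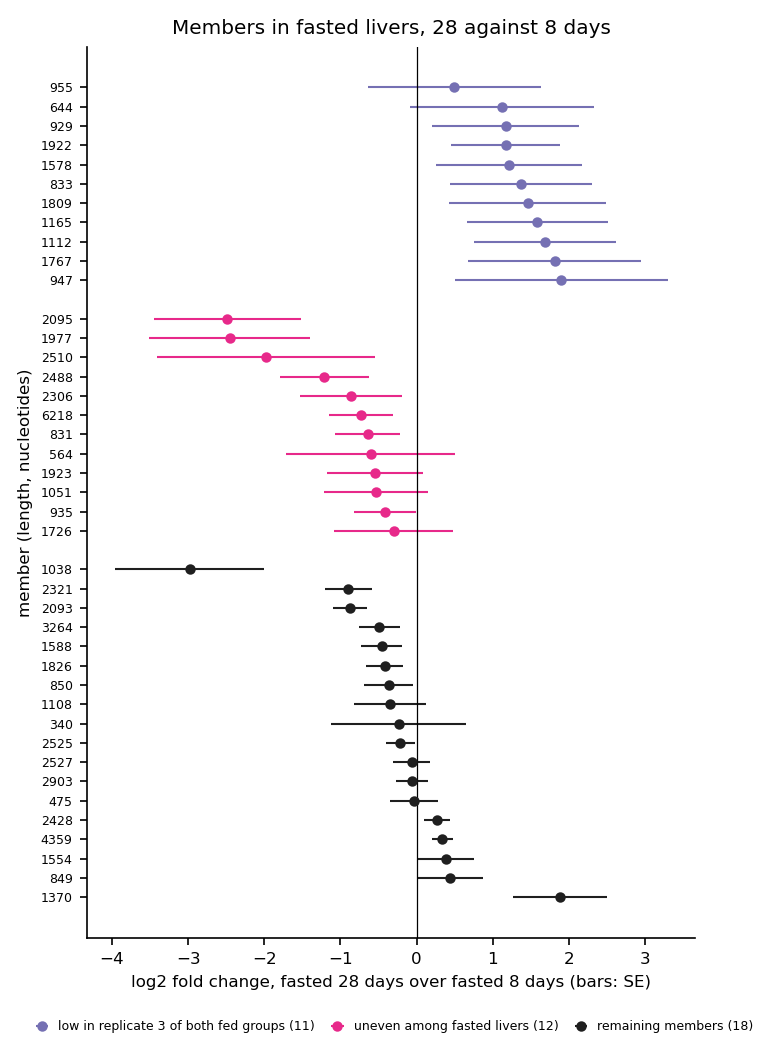
Log2 fold change of the 41 members in livers fasted for 28 days over livers fasted for 8 days, from edgeR with TMM scaling, with bars of 1 SE. Colours are the 3 profiles, and members are named by length in nucleotides. The upper 11 all lie right of 0, the middle 12, whose choice favours that side, all left of it, and no member passed the test.

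Among the 7 with an unadjusted p under 0.05, those of 2093 and 4359 nucleotides had the narrowest errors. The 2093-nucleotide member had 34.7, 33.5 and 26.0 CPM in livers fasted for 28 days and 49.1, 46.1 and 63.3 CPM in livers fasted for 8 days. It was the 1 member whose libraries were all lower after the longer fast, with a log2 fold change of -0.88 ± 0.22. Its fed level was lower at 28 days too, and 11.2% of the fed mean was left at 8 days and 12.8% at 28 days. Its log2 fold change of fasted over fed livers at 28 days minus that at 8 days was -0.20 ± 0.31. The 4359-nucleotide member was all higher after the longer fast, at 0.34 ± 0.14 (0.20 without fasted 8-day replicate 1 and 0.22 without fasted 28-day replicate 1). The 1038-nucleotide member had 0.154, 0.378 and 0 CPM in livers fasted for 28 days and 0.774, 0.213 and 3.12 CPM in livers fasted for 8 days. Its groups overlapped, and its log2 fold change of -2.98 ± 0.98 was -1.45 without fasted 8-day replicate 3, the library at 3.12 CPM. The 1370-nucleotide member moved the other way, with 0.550, 0.348 and 2.02 CPM in livers fasted for 28 days and 0.206, 0.350 and 0.165 CPM in livers fasted for 8 days. Its log2 fold change of 1.89 was 0.78 without fasted 28-day replicate 3. The members of 2321, 2095 and 1977 nucleotides were the other 3, at -0.89 ± 0.31, -2.48 ± 0.97 and -2.45 ± 1.06. Without fasted 8-day replicate 3 the value of the 2095-nucleotide member was -0.46 and that of the 1977-nucleotide member -1.52. The 1977-nucleotide member stood at -5.33 without fasted 28-day replicate 1.

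Fed livers at 28 and 8 days were compared next, with the caution that the rule held their means within 2-fold. Of the members 2 passed as lower at 28 days and none as higher, where 27.1% of all features passed in either direction and 26.3% of the steady features did. The SEs of the members had a median of 0.62, and of 0.94 in the 11 low in fed replicate 3. In a fit of only the libraries compared 9 members passed, and the share of all features in that fit was not recorded. The low count therefore does not show that the members were steadier than other features. The 2903-nucleotide member had 43.4, 43.8 and 60.3 CPM in livers fed for 28 days and 86.1, 97.9 and 105 CPM in livers fed for 8 days. The groups did not overlap, and the log2 fold change was -0.72 ± 0.20 (edgeR adjusted p = 0.0226). The 2093-nucleotide member had 199, 264 and 274 CPM in livers fed for 28 days and 446, 457 and 506 CPM in livers fed for 8 days, again without overlap (-0.68 ± 0.22, edgeR adjusted p = 0.0383). The call of the 2903-nucleotide member was lost without fed 8-day replicate 2 or 3 or fed 28-day replicate 1 or 2 (adjusted p = 0.0567 to 0.102), and that of the 2093-nucleotide member without any one of the 6 fed libraries, without replicate 1 of the fasted 8-day or without replicate 2 of the fasted 28-day group (0.0527 to 0.155). As unscaled CPM, 26 of the 41 members had the lower fed mean at 28 days and 15 the higher. Of the steady features, 39.9% had the higher one by that measure. As TMM-scaled fold change 21 members were lower at 28 days, where 49.5% of all features were.

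The difference between the fasting effects set the fold change of fasted over fed livers at 28 days against that at 8 days. It passed in 1 member, where 14.4% of all features passed. The rule set a least fall for both days and no largest one, so in CPM the 2 effects could differ in size but not in direction. The SEs of this difference had a median of 0.89 in the members, and of 1.36 in the 11 low in fed replicate 3. The low count therefore does not show that the fasting effects differed less between the days in the members than in other features. The 2321-nucleotide member had 0.842, 1.27 and 0.526 CPM in livers fasted for 28 days, against 31.8, 36.7 and 49.2 CPM in fed livers. It had 1.79, 1.18 and 1.51 CPM in livers fasted for 8 days, against 29.3, 28.0 and 31.8 CPM in fed livers. The fasted libraries of the 2 days overlapped, while the lowest library fed for 28 days equalled the highest fed for 8 days at the precision given, and 2.24% was left at 28 days and 5.03% at 8 days. The difference was -1.55 ± 0.40 on the log2 scale (edgeR adjusted p = 0.0271). It passed in 8 of 21 other settings, with adjusted p from 0.00322 to 0.267, and was lost when a single library was left out that was fasted 8-day replicate 1 or 3, fed 8-day replicate 1 or 2, fasted 28-day replicate 3 or fed 28-day replicate 2 or 3 (adjusted p = 0.0545 to 0.0759). The next smallest p belonged to the 1038-nucleotide member, whose difference of -3.38 ± 1.21 did not pass (edgeR adjusted p = 0.0902). For the 4359-nucleotide member the difference was 0.23 ± 0.19 (edgeR adjusted p = 0.493), with an approximate 95% interval of -0.15 to 0.61.

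Near the limit of the rule, the 3 members just inside it had 24.95%, 24.7% and 24.3% left on the day with more left, in the features of 1051, 849 and 1826 nucleotides. The 3 features just outside it had 25.2%, 25.6% and 25.8%, in features of 1547, 2737 and 596 nucleotides. The 849-nucleotide member had 13.7, 10.2 and 29.2 CPM in livers fasted for 28 days, against 61.4, 80.1 and 73.4 CPM in fed livers. The 1051-nucleotide member had 5.36, 1.28 and 1.78 CPM in livers fasted for 28 days, against 15.3, 9.97 and 8.45 CPM in fed livers. In both, 1 fasted library lay clearly above the other 2.

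The members were a median of 1588 nucleotides long (340 to 6218), the steady features 1742, the 65 features of the opposite rule 2109 and all features 598. The identifiers end in a number from 1 to 4 whose meaning the sources used here do not give. It was 4 in 19 of the 41 members (46.3%), in 24.2% of the steady features, in 20.3% of all features and in 9.23% of the 65 features of the opposite rule. By profile it was 4 in 4 of the 11, 5 of the 12 and 10 of the 18 members.

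Transcripts that carry the same component number as a member in their identifiers, here called neighbours, moved in both directions. No locus had more than 1 feature in the files, and 10 members had 25 neighbours, of which 24 were tested. By edgeR's test 5 of the 24 were lower (20.8%) and 5 higher in fasted livers at 8 days, where 12.1% of all features were lower and 13.3% higher. At 28 days 4 were lower (16.7%) and 1 higher, where 5.79% of all features were lower and 4.14% higher. The largest falls were at 8 days, in neighbours of low or moderate level in fed livers. A 697-nucleotide neighbour of the 1767-nucleotide member averaged 0.202 CPM in livers fasted for 8 days, against 26.6 CPM in fed livers (-7.00 ± 1.52, edgeR adjusted p = 0.00647). A 1469-nucleotide neighbour of the 644-nucleotide member averaged 0.484 CPM in livers fasted for 8 days, against 43.7 CPM in fed livers (-6.53 ± 1.13, edgeR adjusted p = 0.00168). A 501-nucleotide neighbour of the 475-nucleotide member had 0 CPM in livers fasted for 8 days, against a mean of 8.13 CPM in fed livers (edgeR adjusted p = 0.00254). None of these 3 passed at 28 days (edgeR adjusted p = 0.177 to 0.924). Their means in livers fed for 28 days were lower than at 8 days, at 5.57, 5.97 and 0.0805 CPM. In livers fasted for 28 days they averaged 2.09, 1.66 and 0.0668 CPM. A neighbour of 3200 nucleotides, which shares its component with the 644-nucleotide member, was the one lower on both days (-1.28 ± 0.31 and -2.01 ± 0.31, edgeR adjusted p = 0.0107 and 0.00276). The 2086-nucleotide neighbour of the 955-nucleotide member was higher in fasted livers at 8 days (1.76 ± 0.18, edgeR adjusted p = 5.93e-05), and the 689-nucleotide neighbour of the 3264-nucleotide member likewise (2.81 ± 0.32, edgeR adjusted p = 0.000105). The 3264-nucleotide member itself had 35.0, 20.7 and 20.2 CPM in livers fasted for 8 days, against 378, 395 and 421 CPM in fed livers. Reads that match several features may have been shared between them, since the deposited counts are not whole, so values of near-identical features are uncertain.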

How the data were processed

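The authors deposited estimated counts, which are not whole, and FPKM values for 42353 features in 12 liver libraries. Per the labels' protocols, stranded mRNA libraries were read as pairs on Illumina instruments. Trimmomatic and Bowtie2 were used, per the submitters' processing notes. The identifiers begin with TRINITY, the name of an assembler, and the sources used here do not otherwise give the assembly program. The program that estimated abundance was not given, and no genome, annotation or sequence was used. Group codes in the design text and replicate numbers tied each column to its sample. Feature lengths came from counts over FPKM, with a total for each library fitted so that the lengths were whole numbers. The fitted totals were 95.8% to 105.1% of the column totals. With them 100% of the lengths were whole within 0.02 nucleotides, which was the aim of the fit.

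CPM is the deposited count over the column total, without further scaling. For the tests, planned for whole counts, the estimated counts were rounded. edgeR 4.0.16 in R 4.3.3 kept 32212 features (filterByExpr by group, 99.7% to 99.8% of counts), scaled by TMM (factors 0.835 to 1.22), and fitted all 12 libraries as 4 group means with robust dispersion (common value 0.293) and quasi-likelihood F tests. P-values were adjusted by the Benjamini-Hochberg method over all tested features, with a threshold of 0.05. SEs, derived from the F statistic, are approximate. The test was tried on simulated counts with known changes.

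The members and lists were chosen with earlier results of these data known. Members described were the 6 of highest fed CPM, the 6 of lowest fasted to fed ratio, those passing the comparisons of fasted livers or of effects, and those nearest the limit; others shown were chosen after their values were seen. Marker and pathway lists could not be run without gene names. Replicates differed by more than counting noise in every pair. Alternatives were other scalings, filters and thresholds, a block for the replicate number, fits of the compared groups alone, DESeq2 1.42.0, limma 3.58.1 with pseudocounts of 1 and 0.1 on log2 FPKM, other limits of the rule, and leaving out each library. Leaving out both fed replicates 3, or the 3 fasted libraries in which 12 members were low, was added after the data were seen.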

Additional observations from a re-analysis of the deposited data

Results flagged for a closer look

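The 2321-nucleotide member was marked because the test of the difference between the fasting effects at 28 and 8 days passed for it. The log2 fold change of fasted over fed livers at 28 days differed from that at 8 days by -1.55 ± 0.40 (SE, edgeR adjusted p = 0.0271). All 3 fasted libraries lay below all 3 fed libraries on each day, as the rule required of every member. All levels in fasted livers were under 2 CPM. Groups of 3 libraries are too small for a test of single outlying libraries, so none was made. With each library left out in turn, the edgeR adjusted p ran from 0.00958 to 0.0759. Over all other settings the call was kept in 8 and lost in 13.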

How the results depend on the processing

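The number of members, 41, depended on the rule. It was 62 with TMM-scaled CPM (39 of the 41 among them), 163 with a limit of 0.5, 22 with a limit of 0.125, 76 without the limit on the fed ratio, and 37 to 57 without 1 library, with 57 without fasted 28-day replicate 3. The count passing at 8 days, 39, stayed between 29 and 40, and between 30 and 40 without 1 library. The count at 28 days, 35, was 23 at an adjusted p under 0.01 and 24 to 38 without 1 library, lowest without fasted 28-day replicate 2. No member passed between fasted groups in any of 23 settings. The 2 calls between fed groups became 0 at an adjusted p under 0.01, 9 with only the libraries compared and 0 to 3 without 1 library. The 1 call on the difference became 0 at an adjusted p under 0.01, 2 with DESeq2 and 0 to 3 without 1 library. An equal count did not always mean the same member. With library size as the only scaling and in each limma setting 1 member passed, but it was not the 2321-nucleotide member. That member had an edgeR adjusted p of 0.0765 with library size alone and limma adjusted p of 0.139 to 0.267. The shares of all features passing in these other settings were not recorded, and the cause of these changes was not tested. Of 656 repeats on single members, 78 lost and 2 gained a call and none changed direction. These members were picked for a high fed CPM, a low fasted to fed ratio or a small p-value in the main fit. The rule had also set the direction of the contrasts of fasted with fed livers. The lack of reversals is therefore a description and adds no support. With library size as the only scaling the 28-day median over all features was 0.45 on the log2 scale, and 0.10 with TMM.

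The labels do not say whether replicate numbers pair the libraries, and the correlations given here cannot decide it. Over all features, deviations of same-numbered libraries correlated with r = -0.19 to 0.19. Over the members alone r was 0.63, 0.80 and 0.91 between the fed groups for numbers 1, 2 and 3, where 11 members are low in replicate 3 of both, and -0.86 to 0.70 between the other groups. With the number as a block, 39 members passed at 8 days, 28 at 28 days, 0 between fasted groups, 1 between fed groups and 0 on the difference. The shares of all features in that fit were not recorded. The fed call lost under the block was that of the 2093-nucleotide member (edgeR adjusted p = 0.0575).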
